A study of Mus musculus with 6 samples.

Results

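Endothelial cells line the inside of brain vessels and were a small population among the cells recovered from hippocampal CA1. They were chosen by a marker rule on the deposited table of unique molecular identifiers (UMIs, each standing for 1 captured mRNA molecule). A barcode was taken when it had more than 300 and at most 8000 detected genes, at most 40% of its UMIs in the 27 mitochondrially encoded genes, a UMI in at least 3 of the 9 genes Cldn5, Flt1, Ly6c1, Itm2a, Slco1a4, Ly6a, Abcb1a, Pltp and Ptprb, and no UMI of Slc17a7, the vesicular glutamate transporter of CA1 pyramidal neurons. The rule found 129 barcodes among the 2096 that passed the limits, out of 6000 deposited, and the other 1967 served as the comparison. The barcodes came from 6 male C57Bl6 mice aged 28 days, with 1000 deposited barcodes for each. Placebo mice 1, 3 and 5 and EPO mice 2, 4 and 6 had each received 1 injection, of placebo or of 5000 IU/kg recombinant human erythropoietin (EPO), and were killed 6 h later. CA1 was digested with papain and DNase I and the suspension went into Drop-seq, which captures single cells and beads in droplets. Nothing in the labels ties a barcode to a vessel type, and the number D1 or D2 in the sample titles (D1 for placebo mice 1 and 3 and EPO mouse 2, D2 for the rest) was not explained.

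Brain endothelial cells form the blood-brain barrier. Their tight junctions seal the gap between neighbours, transporters of the solute carrier family bring glucose, amino acids and other nutrients across, ABC pumps return lipophilic compounds to the blood, and vesicular transport is kept low. The barrier state is maintained by Wnt ligands from neural cells acting through beta-catenin, and vessels are wrapped by mural cells (pericytes and smooth muscle), which share a basement membrane with the endothelium. EPO is a hormone best known for acting on red cell precursors through its receptor Epor and JAK2-STAT5.

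The members were unevenly spread and shallow. Placebo mice 1, 3 and 5 gave 28, 12 and 21 members and EPO mice 2, 4 and 6 gave 20, 28 and 20. Their summed UMIs per mouse ran from 17152 in placebo mouse 3 to 127349 in placebo mouse 1, and 382219 in all. A member held a median of 1561 UMIs and 837 genes, against 2004 UMIs and 931 genes in other barcodes. Levels below are UMIs of a gene in every 1000000 UMIs (CPM), summed over the members of a mouse, and values per mouse are given in the order placebo mice 1, 3 and 5, then EPO mice 2, 4 and 6. A gene with 0 UMIs could be present at up to 7.85 CPM over all members, or at 23.6 to 174.9 CPM in a single mouse, where 3 UMIs are taken as the limit of detection. These limits and the intervals below cover counting error only. Of the 127 barcode sequences among the members, 2 occurred in more than 1 mouse, as did 44 of the 2052 among all passing barcodes.

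The 9 rule genes were found together in most members. A UMI of all 9 was present in 61 members, of 8 in 30, of 7 in 15 and of 6 in 8, while 3 members had 5, 2 had 4 and 10 had 3. Just outside the rule, 26 barcodes without Slc17a7 had 2 of the 9, and 21 barcodes with at least 3 of the 9 had a Slc17a7 UMI. The 15 members with 3 to 5 rule markers stood apart from the 114 with 6 to 9. Placebo mouse 1 held 8 of the 15 and EPO mouse 4 held 4. Their median was 4850 UMIs against 1469.5, and they held 28.8% of all member UMIs. At least 3 markers of another cell type were detected in 13 of the 15, and of 2 or more other cell types in 12. These other markers go against the endothelial label for most of the 15, which are counted here because the rule takes them. Among endothelial genes outside the rule, Pecam1 had a UMI in 67 of the 114 and 3 of the 15, and Cdh5 in 37 and 0. Placebo mice 3 and 5 had none of the 15.

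**Figure D1:**
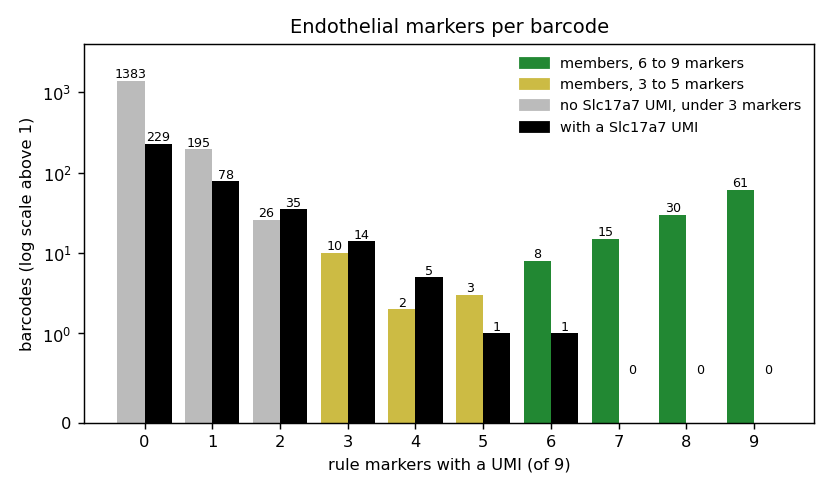
Barcodes passing the limits by the number of the 9 rule markers with a UMI (x axis; y axis, number of barcodes on a log scale above 1), split by whether a Slc17a7 UMI was present. Members with 6 to 9 markers (green) form a second peak at 9, where 61 barcodes lie, apart from the 1383 barcodes with no marker and no Slc17a7 UMI.

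Markers of other cell types were checked in each member. Among the 15 with few rule markers, at least 3 mural markers occurred in 7, astrocyte markers in 11, oligodendrocyte markers in 10 and neuron markers in 10. A barcode of EPO mouse 4 carried 9 of the 10 fibroblast and meningeal markers. Among the 114, the same counts were 9 for mural, 20 for astrocyte, 28 for oligodendrocyte and 8 for neuron markers. Barcodes with at least 500 UMIs, which were all of the 114 and 1926 other barcodes, were then thinned to 500 UMIs. At least 3 astrocyte markers were left in 0 of the 114 (an upper limit of 2.63%) against 20.6% of the 1926. Oligodendrocyte markers were left in 5.26% against 12.8%, neuron markers in 0.877% against 34.1% and mural markers in 7.02% against 2.96%. Where a value over the 114 alone is given below, it shows the part of the 15 in that result.

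**Figure D2:**
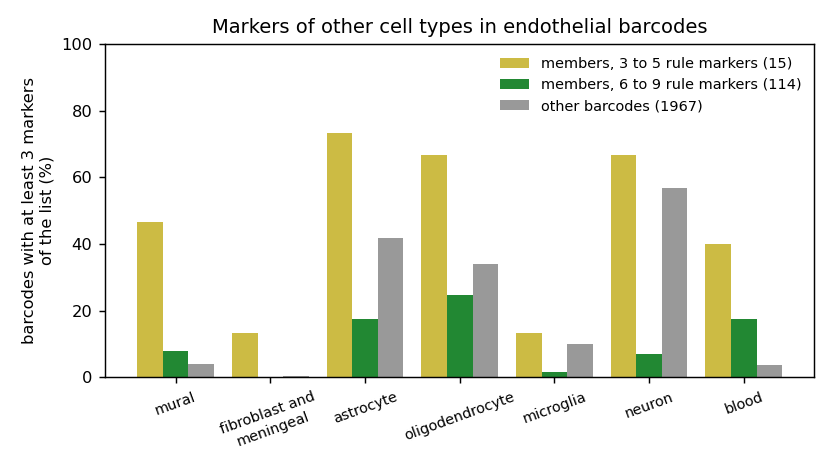
Share of barcodes with a UMI in at least 3 markers of another cell type (y axis, percent, unthinned) for members with 3 to 5 rule markers, members with 6 to 9 and other barcodes. Astrocyte markers reached 73.3% of the 15, 17.5% of the 114 and 41.7% of other barcodes.

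RefSeq gives promoter windows on GRCm38.p6, the build that mm10 in the submitters' processing notes names, for 7 of the 9 rule genes (all but Ly6a and Ptprb). ETS factors such as Erg and Fli1 bind endothelial promoters at a GGAA core, so the 250 bases before each start were searched on both strands for AGGAAG or its reverse complement CTTCCT, overlapping matches counted. A match was present in 5 of the 8 windows of the rule genes, in 29.5% of the 522 windows of genes higher in members, in 27.3% of the 12283 windows of genes with enough UMIs to be considered and in 29.5% of all 32851 windows. The windows of Flt1 (chr5:147726012-147726261, minus strand) and Slco1a4 (chr6:141856221-141856470, minus strand) with matches, and that of Cldn5 (chr16:18776597-18776846, plus strand) without, are shown as examples of rule genes with and without a match, with the matched letters in capitals, each written along its gene's own strand. A match is a run of letters and not a measured binding site.
Flt1: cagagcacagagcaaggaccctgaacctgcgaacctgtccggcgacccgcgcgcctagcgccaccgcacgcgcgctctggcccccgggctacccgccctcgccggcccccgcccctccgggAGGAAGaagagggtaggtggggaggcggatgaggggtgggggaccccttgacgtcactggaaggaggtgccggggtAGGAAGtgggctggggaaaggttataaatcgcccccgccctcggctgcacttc
Slco1a4: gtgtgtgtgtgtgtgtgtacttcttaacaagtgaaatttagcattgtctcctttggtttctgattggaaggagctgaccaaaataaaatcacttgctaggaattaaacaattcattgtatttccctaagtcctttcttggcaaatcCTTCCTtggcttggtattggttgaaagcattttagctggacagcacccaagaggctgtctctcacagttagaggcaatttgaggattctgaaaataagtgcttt
Cldn5: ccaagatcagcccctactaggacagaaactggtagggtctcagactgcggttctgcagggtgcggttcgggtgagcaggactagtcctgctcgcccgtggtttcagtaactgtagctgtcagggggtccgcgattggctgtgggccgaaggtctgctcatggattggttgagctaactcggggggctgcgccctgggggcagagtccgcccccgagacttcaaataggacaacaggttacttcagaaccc

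The rule genes themselves chose the members, so their levels are a description with no test. Flt1, a receptor for VEGF, was at 2559.9, 4839 and 5642 CPM under placebo and 4099, 4035 and 4575 CPM under EPO, and 1.95 to 29.6 CPM in other barcodes. Cldn5, the main claudin of brain tight junctions, was at 1248, 2274 and 1457 CPM under placebo and 1346, 1057 and 798 CPM under EPO, and Abcb1a, the drug pump P-glycoprotein, at 1186, 2041 and 2278 CPM under placebo and 2181, 1629 and 2229 CPM under EPO. Every one of the 6 mice lay far above the highest value in other barcodes, and placebo mouse 1 was lowest for both Flt1 and Abcb1a. Over the 114 alone, placebo mouse 1 stood at 4691 CPM for Flt1 and 2210.3 CPM for Abcb1a and was lowest for neither. The remaining rule genes covered 1499.8 to 3965 CPM for the organic anion carrier Slco1a4, 1335 to 5862 CPM for Ly6c1, 895 to 2567 CPM for Ly6a, 1327 to 4212 CPM for Itm2a, 982 to 3265 CPM for the phospholipid transfer protein Pltp and 1304 to 3656 CPM for Ptprb, the phosphatase that opposes the angiopoietin receptor. Ly6c1 and Ly6a belong to a gene family, and reads of its most similar members may have been split among them by the counting.

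Genes that the rule did not name were compared between members and other barcodes in each mouse, again as a description, since the same cells were chosen by this contrast. A gene was counted as higher where its CPM was at least 2-fold higher in 6 of 6 mice. Of 12862 genes with at least 20 UMIs over all barcodes, 515 (4.00%) were higher, and 501 of these were also among the 567 higher in the 114 members with 6 to 9 markers. Over the 12862 genes the median ratio of members to other barcodes was 0.780. The counts of each gene list below are read beside these background values. Of the 462 genes in the lists, 44 are in more than 1 list, so the counts of different lists are not independent.

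Endothelial identity genes outside the rule were higher in 24 of 26, with a median ratio of 179. Cdh5, the cadherin of endothelial adherens junctions, was at 141, 175 and 238 CPM under placebo and 155, 86.3 and 211 CPM under EPO, and 0 to 0.897 CPM in other barcodes. All 57 of its UMIs lay in the 114. Pecam1, an adhesion molecule of endothelial borders, was at 416, 641 and 848 CPM under placebo and 711, 475 and 375 CPM under EPO, with 3.34 CPM on average in other barcodes. Among the other members of the list, Erg averaged 414 ± 97.4 CPM (SD, n = 6 mice) against 1.35 CPM, the orphan adhesion receptor Eltd1 812 ± 295 CPM (SD, n = 6 mice) against 2.49 CPM and the Sox factor Sox17 253 ± 93.3 CPM (SD, n = 6 mice) against 0.545 CPM. None of these groups of values overlapped with the other barcodes. Ecscr and Sox18 were not counted as higher, because Ecscr had no UMI in placebo mice 3 and 5 and Sox18 none in placebo mouse 3, the mouse with the fewest member UMIs.

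**Figure D3:**
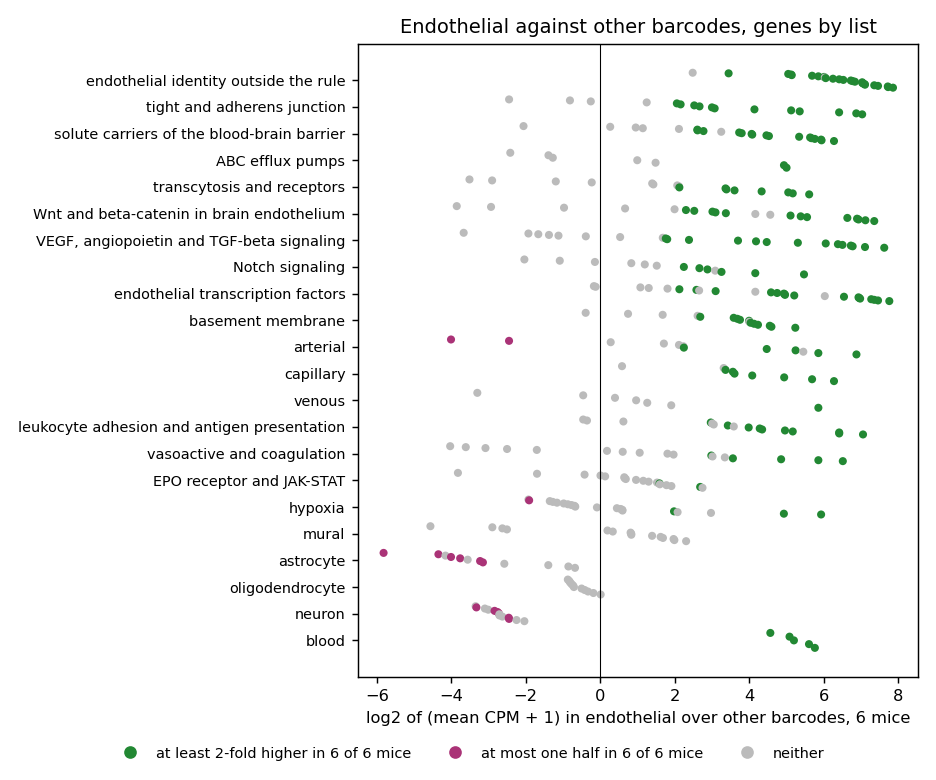
Log2 ratio of mean CPM + 1 in endothelial over other barcodes (x axis) for the genes of each list (y axis, 1 point for each gene with at least 20 UMIs), coloured by the 6-of-6 rule. Points of the endothelial, barrier and Wnt lists lie mostly right of 0, and those of the astrocyte and neuron lists left of it.

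Tight and adherens junction genes were higher in 12 of 16 (median ratio 7.38). Ocln, a membrane protein of tight junctions, was at 70.7, 349.8 and 185 CPM under placebo and 124, 140.3 and 188 CPM under EPO, against 3.32 CPM in other barcodes. The lipolysis-stimulated receptor Lsr, part of tricellular junctions, averaged 309 ± 137 CPM (SD, n = 6 mice) against 1.63 CPM, and the scaffold Tjp1 averaged 609 ± 285 CPM (SD, n = 6 mice) against 71.4 CPM. Cgnl1, the junctional adaptor paracingulin, stood at 671 ± 246 CPM (SD, n = 6 mice) against 6.86 CPM. No UMI of Cldn1, Cldn3, Tjp3, Cgn or Marveld3 was found in the members, which allows a level of up to 7.85 CPM for each, and Cldn12 had 4 UMIs.

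Of the solute carriers, 16 of 22 were higher (median ratio 15.9). Slc2a1, the glucose transporter GLUT1, was at 746, 2973 and 1854 CPM under placebo and 1732, 723 and 2041 CPM under EPO, and 15.8 to 62.9 CPM in other barcodes. Placebo mouse 1 and EPO mouse 4 were the lowest, also over the 114, at 1383 and 1117 CPM. Slco1c1, which carries thyroxine, was at 1680.4, 3556 and 3046 CPM under placebo and 3016, 1888 and 2229 CPM under EPO. It was lowest in placebo mouse 1, but over the 114 that mouse stood at 3188 CPM and EPO mouse 4 was lowest at 2927 CPM. Slc7a5, the light chain of the large neutral amino acid carrier, was at 109.9, 816 and 477 CPM under placebo and 263, 205 and 563 CPM under EPO. Its partner Slc3a2 averaged 468 ± 196 CPM (SD, n = 6 mice) against 67.5 CPM, the lactate carrier Slc16a1 638 ± 164 CPM (SD, n = 6 mice) against 36.7 CPM, the thiamine carrier Slc19a3 76.3 ± 39.7 CPM (SD, n = 6 mice) against 0.255 CPM and the iron exporter Slc40a1 347 ± 157 CPM (SD, n = 6 mice) against 5.80 CPM. Slc27a1 and Slc44a1, a fatty acid and a choline carrier, were not higher, and 50 of the 72 Slc44a1 UMIs came from the 15 members with few rule markers.

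Besides Abcb1a, 2 of 7 of the ABC pumps were higher. Abcg2, the breast cancer resistance protein, was at 283, 525 and 715 CPM under placebo and 773, 334 and 868 CPM under EPO, and Abcc4 averaged 107 ± 55.0 CPM (SD, n = 6 mice) against 2.54 CPM. Abcc5 was at 36.4 ± 21.9 CPM (SD, n = 6 mice) with 97.0 CPM in other barcodes, Abcc1 had 3 UMIs and Abcb1b, the close paralog of Abcb1a, had 1. Abcb1a and Abcb1b are similar in sequence, so their split depends on the counting.

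Genes of vesicular transport and its receptors were higher in 8 of 16 (median ratio 4.46). Mfsd2a, the lipid carrier that keeps vesicular transport low in brain vessels, was at 118, 525 and 159 CPM under placebo and 186, 194 and 258 CPM under EPO, against 18.8 CPM in other barcodes. Tfrc, the transferrin receptor, was at 448, 991 and 1166 CPM under placebo and 696, 723 and 845 CPM under EPO. Caveolar genes were also higher, with Cav1 at 171 ± 88.2 CPM (SD, n = 6 mice) against 3.76 CPM and Sdpr, a cavin, at 858 ± 289.9 CPM (SD, n = 6 mice) against 16.6 CPM. Plvap, which forms the diaphragms of leaky vessels, had 0 UMIs in the members. Its mean of 6.48 CPM in other barcodes lies under the limit of 7.85 CPM, so no difference could be seen at this depth. Lrp1, a receptor of lipoproteins, had 5 UMIs in the members and averaged 102 CPM in other barcodes.

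**Figure D4:**
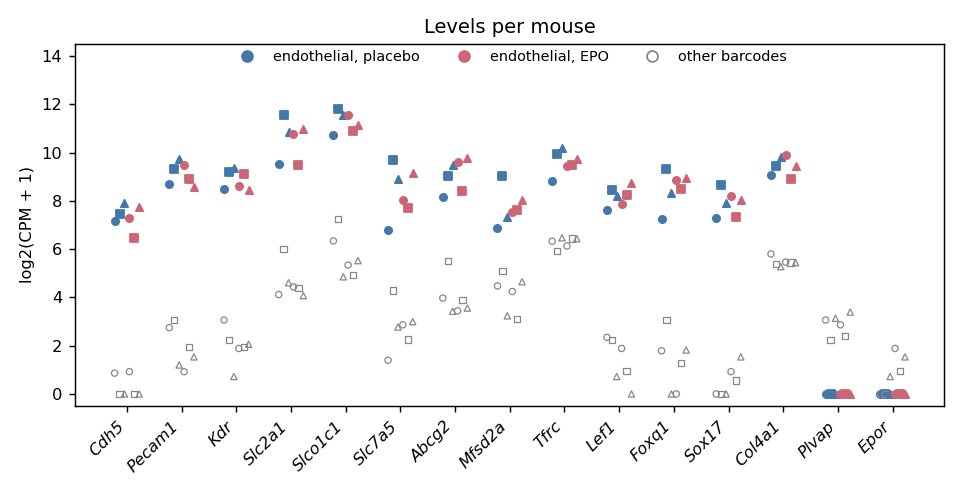
Levels of 15 genes on a log2(CPM + 1) scale (y axis) in endothelial barcodes of each placebo and EPO mouse (filled) and in other barcodes of the same mice (open). Marker shapes stand for placebo mice 1, 3 and 5 and EPO mice 2, 4 and 6 in turn, and Plvap and Epor lie at 0 in all 6 endothelial sums.

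Of the Wnt and beta-catenin list, 13 of 20 genes were higher (median ratio 11.3), among them receptors, feedback inhibitors and transcription factors but no ligand. Lef1, the factor that takes beta-catenin to its targets, was at 196, 349.8 and 291 CPM under placebo and 232, 302 and 422 CPM under EPO, and 0 to 4.09 CPM in other barcodes. Foxq1, a forkhead factor of brain endothelium, was at 149, 641 and 318 CPM under placebo and 464, 356 and 493 CPM under EPO. All 6 values of both genes lay above every value of other barcodes. The feedback inhibitors Apcdd1, Axin2 and Nkd1 averaged 71.8 ± 37.7 CPM (SD, n = 6 mice) against 1.10 CPM, 119 ± 53.3 CPM (SD, n = 6 mice) against 10.6 CPM and 91.7 ± 35.0 CPM (SD, n = 6 mice) against 9.84 CPM. Notum, an enzyme that inactivates Wnt ligands, had 36 member UMIs at 39.3 to 233 CPM and 0 in other barcodes, which puts these under 0.382 CPM. Among the surface receptors, Fzd6 averaged 149 ± 41.1 CPM (SD, n = 6 mice) against 2.58 CPM and Reck 56.5 ± 41.7 CPM (SD, n = 6 mice) against 6.12 CPM, while Gpr124 and Tspan12, with 18 and 15 UMIs, were 2-fold higher in 5 of 6 mice. Fzd4 was 2-fold higher in 6 of 6 mice but had 11 UMIs in members and 4 in other barcodes, too few to be considered. The ligands Ndp and Wnt7b had 0 UMIs in members and Wnt7a had 3, all in the 15 members with few rule markers.

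The VEGF, angiopoietin and TGF-beta list had 14 of 22 genes higher (median ratio 9.23), most of them receptors and the rule gene Ptprb among them. Kdr, the main signalling receptor for VEGF, was at 361, 583 and 662 CPM under placebo and 387, 550.2 and 352 CPM under EPO, and Tek, the receptor of the angiopoietins, at 259, 233 and 450.3 CPM under placebo and 387, 291 and 680.4 CPM under EPO. Tie1 averaged 262 ± 101 CPM (SD, n = 6 mice) against 1.47 CPM, the ALK1 receptor Acvrl1 215 ± 91.3 CPM (SD, n = 6 mice) against 1.38 CPM and its co-receptor Eng 246 ± 154 CPM (SD, n = 6 mice) against 2.71 CPM. Id1, a target of BMP signalling, averaged 673 ± 282 CPM (SD, n = 6 mice) against 7.07 CPM. The ligand gene Angpt1 had 0 member UMIs, and all 8 Vegfa UMIs came from the 15 members with few rule markers, whereas Vegfc was higher at 81.5 ± 58.3 CPM (SD, n = 6 mice) against 2.72 CPM.

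Notch genes were higher in 6 of 13 (median ratio 4.88). The receptors Notch1 and Notch4 averaged 169 ± 37.8 CPM (SD, n = 6 mice) against 22.1 CPM and 89.1 ± 57.9 CPM (SD, n = 6 mice) against 4.02 CPM, and the ligand Dll4 60.8 ± 43.0 CPM (SD, n = 6 mice) against 0.391 CPM. Notch3, the mural receptor, had 9 UMIs, of which 8 came from the 15. Endothelial transcription factors were higher in 17 of 25 (median ratio 31.1). The flow-responsive factors Klf2 and Klf4 were at 526 ± 285 CPM (SD, n = 6 mice) against 3.18 CPM and 449 ± 137 CPM (SD, n = 6 mice) against 3.81 CPM. Gata2 was at 94.2, 699.6 and 291 CPM under placebo and 139, 64.7 and 188 CPM under EPO, and 0 to 0.817 CPM in other barcodes, and the ETS factor Fli1 at 303 ± 188 CPM (SD, n = 6 mice) against 8.81 CPM. Zfp366 had 37 UMIs in members and 0 in other barcodes. Tcf4 was not higher, at 1085 ± 354 CPM (SD, n = 6 mice) against 1220.4 CPM.

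Vessel segments were compared by short marker lists within the 114 members with 6 to 9 rule markers. At least 2 capillary markers had a UMI in 101 members (88.6%), at least 2 arterial markers in 33 (28.9%) and at least 2 venous markers in 31 (27.2%), while 11 had both arterial and venous markers and 8 had none of the 3. By mouse, the capillary share ran from 76.2% to 100%, the arterial share from 16.7% to 36.8% and the venous share from 16.7% to 38.9%, over 12 to 24 members a mouse and without thinning. Capillary genes were higher than in other barcodes in 7 of 9, arterial genes in 5 of 12 and venous genes in 1 of 7. Spock2 of the capillary list was at 1798, 4081 and 3152 CPM under placebo and 3031, 3042 and 2722 CPM under EPO. Car4, a membrane-bound carbonic anhydrase, averaged 662 ± 359.7 CPM (SD, n = 6 mice) against 20.6 CPM. Of the arterial list, the semaphorin Sema3g averaged 191 ± 113 CPM (SD, n = 6 mice) against 0.624 CPM and the kinase Bmx 73.7 ± 28.6 CPM (SD, n = 6 mice) against 0.966 CPM. Gkn3 was uneven, at 0, 58.3 and 106 CPM under placebo and 449, 129 and 23.5 CPM under EPO, with a UMI in 6 members. Stmn2 and Clu of the arterial list are also high in neurons and astrocytes and were lower in members. Slc38a5, a venous and capillary carrier, had 13 member UMIs and none in other barcodes, and Icam1, Vcam1, Darc and Lcn2 of the venous list had 1, 10, 0 and 0. The 3 lists overlap other lists, and depth per member sets how many markers can be seen, so these shares rank no segment.

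Basement membrane genes were higher in 11 of 16 (median ratio 15.4). Col4a1 was at 542, 699.6 and 901 CPM under placebo and 943, 475 and 704 CPM under EPO, and its partner chain Col4a2 averaged 771 ± 226 CPM (SD, n = 6 mice) against 56.2 CPM. The laminin chain Lama4 averaged 184 ± 71.8 CPM (SD, n = 6 mice) against 6.85 CPM, fibronectin (Fn1) 514 ± 299 CPM (SD, n = 6 mice) against 12.6 CPM and the integrin Itga6 514 ± 282 CPM (SD, n = 6 mice) against 26.3 CPM. Sparc, a collagen-binding glycoprotein, was at 2678, 4781 and 3656 CPM under placebo and 4454, 2967 and 2464 CPM under EPO, and Sparcl1, which astrocytes and neurons also make, was not counted as higher at 2760.2 ± 259 CPM (SD, n = 6 mice) against 1643 CPM.

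Of the list of leukocyte adhesion and antigen presentation, 10 of 16 genes were higher (median ratio 14.8). B2m, the light chain of MHC class I, was at 738, 1399 and 1775 CPM under placebo and 1918, 1208 and 1361 CPM under EPO, and 88.8 to 274 CPM in other barcodes. The class I genes H2-D1 and H2-K1 averaged 534 ± 195 CPM (SD, n = 6 mice) against 25.2 CPM and 223 ± 103 CPM (SD, n = 6 mice) against 19.8 CPM, with the caution that class I genes resemble each other, and the interferon-induced Ifitm3 and Bst2 averaged 379 ± 177 CPM (SD, n = 6 mice) against 9.56 CPM and 131 ± 108 CPM (SD, n = 6 mice) against 3.22 CPM. The chemokine Cxcl12 was at 1389.9, 1574 and 1351 CPM under placebo and 1516, 2244 and 1619 CPM under EPO. The adhesion molecules of activated endothelium were scarce, with 0 UMIs for Sele and Selp, 1 for Icam1 and 10 for Vcam1, while the constitutive Icam2 averaged 118 ± 55.2 CPM (SD, n = 6 mice) against 0.391 CPM.

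Outside the lists, the 15 genes with the largest ratio were Gimap8, Pglyrp1, Rnf125, Gm694, Ly75, Clec2d, Ifit1, Rsad2, She, Serpinb6b, Cdkn2b, Unc45b, Cyyr1, Clic5 and Fas. Pglyrp1, a peptidoglycan recognition protein, was at 118, 1049 and 212 CPM under placebo and 371, 129 and 235 CPM under EPO, with a UMI in 46 members. Clic5, a chloride channel protein, was at 329.8, 292 and 503 CPM under placebo and 371, 302 and 516 CPM under EPO. Rsad2 (viperin) and Ifit1, both induced by interferon, had 69 and 29 UMIs spread over 27 and 19 members, with at most 13 and 5 in 1 member. These 15 had 0 to 8 UMIs in the 1967 other barcodes, so their ratios rest on few counts. Gimap8 had 26 member UMIs and none elsewhere.

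Vasoactive and coagulation genes were higher in 5 of 17 (median ratio 3.50, or 2.33 over the 114). Edn1, the vasoconstrictor endothelin, was at 188, 175 and 106 CPM under placebo and 340.3, 86.3 and 211 CPM under EPO. Endothelial nitric oxide synthase (Nos3) averaged 92.7 ± 20.4 CPM (SD, n = 6 mice) against 2.23 CPM, von Willebrand factor (Vwf) 100.1 ± 41.9 CPM (SD, n = 6 mice) against 0.741 CPM, the converting enzyme Ece1 286 ± 108 CPM (SD, n = 6 mice) against 23.3 CPM and the plasminogen activator Plat 331 ± 174 CPM (SD, n = 6 mice) against 41.0 CPM. Ptgds, a prostaglandin synthase of meninges and oligodendrocytes, was at 2144, 58.3 and 0 CPM under placebo and 61.9, 7973 and 0 CPM under EPO, and 1004 of its 1017 UMIs came from the 15 members with few rule markers.

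Most genes of the EPO pathway had few UMIs in the members. Epor itself had 0 UMIs in the 129, which allows a share of up to 2.33% of members with a UMI and a level of up to 7.85 CPM. In other barcodes 9 UMIs gave 1.03 CPM and a share of 0.458%, so the depth could not separate the classes. Jak2, the kinase bound to the receptor, had 17 UMIs at 32.4 to 61.9 CPM, Stat5a had 1 and Stat5b had 9. Targets were as rare, with 3 UMIs of Cish, 3 of Socs3, 7 of Pim1 and 20 of Socs2. Of the whole list, 2 of 18 were higher than in other barcodes (median ratio 2.19, or 2.18 over the 114). The list summed to 1256 to 1994 CPM in members and to 667 to 855 CPM in other barcodes. The 2 higher genes were Stat3 at 66.2 ± 32.7 CPM (SD, n = 6 mice) against 21.2 CPM and the survival factor Mcl1 at 324 ± 138 CPM (SD, n = 6 mice) against 49.5 CPM. Hypoxia-list genes were higher in 3 of 20 (median ratio 0.781), namely Epas1 (HIF-2 alpha) at 853 ± 249.6 CPM (SD, n = 6 mice) against 26.9 CPM, Slc2a1, and Ddit4 at 228 ± 149 CPM (SD, n = 6 mice) against 57.0 CPM, which was no longer counted over the 114.

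Stress-related lists were mixed. Immediate early and dissociation genes were higher in 8 of 29 (median ratio 3.32), among them Klf2, Klf4, Hspb1 at 419.6 ± 242 CPM (SD, n = 6 mice) against 6.16 CPM and Nfkbia at 892 ± 375 CPM (SD, n = 6 mice) against 70.9 CPM, while Fos had 8 UMIs, Egr1 had 15 and Fosb had 0. Glucocorticoid targets were higher in 5 of 14, among them Tsc22d3 at 465 ± 229.7 CPM (SD, n = 6 mice) against 82.6 CPM and the cell cycle inhibitor Cdkn1a at 220.3 ± 169 CPM (SD, n = 6 mice) against 9.56 CPM. The proliferation genes Mki67, Top2a, Ccnb1, Ccna2 and Birc5 had 0 UMIs, as did Esm1, a tip cell marker. A level of up to 7.85 CPM is allowed for each. The rest of the 15 proliferation and tip cell genes had member UMIs. Only 7 of the 15 had at least 20 UMIs over all barcodes, with a median ratio of 1.05, and 1 was higher. In the same list Cd93, a glycoprotein of endothelial cells, was higher at 321 ± 137 CPM (SD, n = 6 mice) against 1.33 CPM.

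Several genes of astrocytes and neurons were lower in the members. A gene was counted as lower where its CPM was at most 0.5 of that in other barcodes in 6 of 6 mice, among the 788 genes for which at least 3 UMIs would be present in every mouse at the level of other barcodes. By this rule 118 (15%) were lower, and 251 over the 114. Astrocyte genes were lower in 6 of 10, with the glutamate transporter Slc1a2 at 90.6 ± 72.7 CPM (SD, n = 6 mice) against 1241 CPM and Aldoc at 63.6 ± 73.1 CPM (SD, n = 6 mice) against 572 CPM, and neuron genes in 6 of 9. Over the 114 these counts were 7 of 10 and 9 of 9. Outside the lists Ptprz1, a phosphatase of astrocytes and oligodendrocyte precursors, had 0 member UMIs (a level of up to 7.85 CPM) against 160.2 CPM, and Meg3, a long noncoding RNA of neurons, averaged 1492 ± 1598 CPM (SD, n = 6 mice) against 16995 CPM. Of its 804 member UMIs, 561 came from the 15, and over the 114 it averaged 779 CPM. The oligodendrocyte list had 0 of 11 lower over all members and 10 of 11 over the 114. No mural gene of 15 was counted as higher (median ratio 1.88, or 1.11 over the 114). None could be, because placebo mouse 3 had 0 UMIs of the whole list, which allows up to 174.9 CPM for each gene there. Rgs5, the pericyte marker with the most UMIs, was at 1775, 0 and 715 CPM under placebo and 1021, 486 and 23.5 CPM under EPO, and 218 of its 365 UMIs came from the 15.

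Hemoglobin stood out among genes that the rule did not use. All 5 blood genes were higher (median ratio 37.1). Hbb-bs, an adult beta globin, was at 14731, 27868 and 39337 CPM under placebo and 37335, 15428 and 11449 CPM under EPO, and 14.9 to 2662 CPM in other barcodes. The groups of placebo and EPO mice overlapped. At 500 UMIs per barcode, at least 3 of the 5 genes were left in 14.9% of the 114 and in 0.156% of the 1926 other barcodes with at least 500 UMIs. The 5 genes summed to 24.7 to 5477 CPM in other barcodes and to 19684 to 72583 CPM in members, and the highest sum in other barcodes was that of placebo mouse 1, with at most 141 CPM in the other 5 mice. They took part of every member total by which CPM is computed. The source of the globin UMIs was not tested. The globin genes are near copies of each other, and their single values depend on the counting.

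EPO and placebo mice were then compared, with the mouse as the unit. Endothelial barcodes were 7.95%, 10.5% and 4.68% of passing barcodes in placebo mice 1, 3 and 5 and 6.27%, 5.80% and 5.28% in EPO mice 2, 4 and 6. Exact binomial 95% intervals ran from 2.92% to 7.06% for placebo mouse 5 and from 5.56% to 17.7% for placebo mouse 3, the widest. The EPO values lay inside the placebo range. The means were 5.78% ± 0.496 (SD, n = 3) with EPO and 7.72% ± 2.93 (SD, n = 3) with placebo (two-sided exact permutation test, p = 0.4, where 3 against 3 mice cannot go below 0.1). Within D1 the difference of EPO minus placebo was -2.97 percentage points, and within D2 it was 0.860 points, so the direction did not hold within both D numbers. Over the 114 members the difference was -1.74 points (exact permutation p = 0.7). Where only barcodes with over 1000 genes were taken it turned to 0.285 points.

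Depth and RNA quality of the members were compared in the same way. The median UMIs per member were 1676, 1109 and 1403 in placebo mice 1, 3 and 5 and 1829.5, 1998 and 1127.5 in EPO mice 2, 4 and 6. The median share of mitochondrial UMIs was 14.0%, 7.78% and 10.0% against 15.8%, 10.1% and 4.66%. Both measures overlapped between the groups, as did the median number of genes. None of the 3 passed the exact permutation test (p = 0.4, 0.3 and 1 for UMIs, genes and mitochondrial share, or 0.6, 0.6 and 1 adjusted over the 3).

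No gene passed the test of EPO against placebo in the members. UMIs were summed per mouse, and edgeR's quasi-likelihood test with Benjamini-Hochberg adjustment over 922 genes called 0 (0%) at 5%, with 7 at an unadjusted p under 0.05. Limma called 0 of 922 with 7 at an unadjusted p under 0.05, and DESeq2 0 with 2. Over the 114 members edgeR called 0 of 894, with 16 at an unadjusted p under 0.05. The log2 fold changes of the 922 genes had a median of -0.01 and ran from -1.74 to 1.51. For 57 genes (6.18%) the groups did not overlap and the fold change had the same direction. That share is the background for the genes named next, which have the smallest p among the 57. Under random labels, 3 against 3 mice separate fully with a probability of 0.1, so the share is no excess.

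Among genes with lower values after EPO, Cst3, the secreted protease inhibitor cystatin C, was at 1649, 2565 and 2622 CPM under placebo and 1500.2, 1144 and 915 CPM under EPO, so every EPO mouse lay below every placebo mouse (log2 fold change -0.90 ± 0.33 (SE), edgeR adjusted p = 0.997). Limch1, an actomyosin regulator, and the mitochondrially encoded mt-Nd4 had log2 fold changes of -0.89 ± 0.38 and -0.66 ± 0.31 (SE). Among genes with higher values, Stx4a, a syntaxin of the plasma membrane, was at 133, 117 and 132 CPM under placebo and 278, 227 and 352 CPM under EPO, on 2 to 21 UMIs in the 6 mice (log2 fold change 1.03 ± 0.42 (SE), edgeR adjusted p = 0.997). BC005537 and Mpzl1, a cell surface glycoprotein, had log2 fold changes of 0.98 ± 0.43 and 0.99 ± 0.44. The adjusted p of all 6 was 0.997. Over the 114 members, the groups of 4 of the 6 genes overlapped (Stx4a, Mpzl1, Limch1 and mt-Nd4). Cst3, at 1759, 2565 and 2622 CPM under placebo and 1512, 1269 and 1248 CPM under EPO, and BC005537, at 135, 175 and 106 CPM under placebo and 366, 321 and 381 CPM under EPO, did not overlap there.

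**Figure D5:**
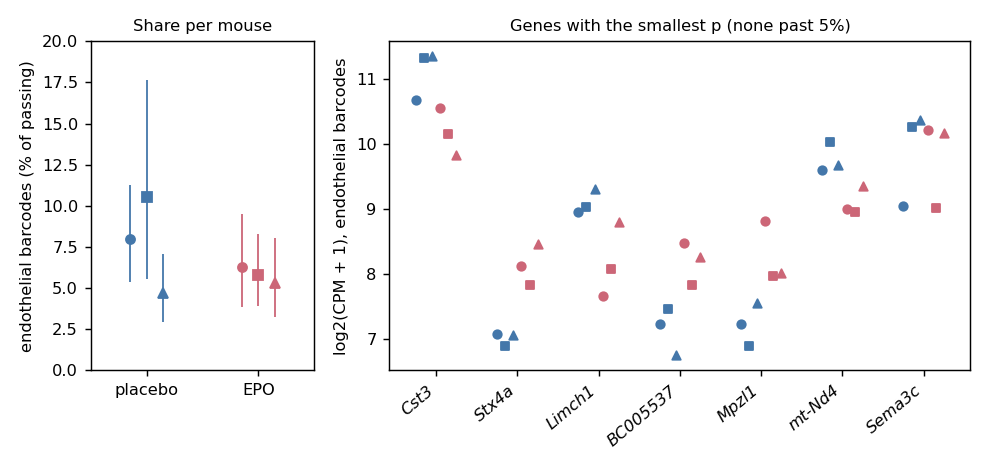
Left, endothelial barcodes as a percentage of passing barcodes in each mouse, with exact binomial 95% intervals (n = 3 mice a group). Right, log2(CPM + 1) in endothelial barcodes per mouse for the 6 genes with the smallest p of EPO against placebo without overlap of the groups, and for Sema3c, whose groups overlap. No gene passed 5% after adjustment.

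No gene of the lists passed the test either. Over all 922 genes tested, 455 had a log2 fold change above 0 and 467 below. Of the 9 rule genes, all tested, 4 had a log2 fold change above 0 and 5 below (median -0.02). Identity genes outside the rule had a median of -0.06 over 18 tested, and junction genes -0.06 over 8. Solute carriers had a median of -0.20 over 12 (9 below 0) and vesicular transport genes -0.08 over 6 (all 6 below 0). The 4 blood genes tested were all below 0 (median -0.44), and the 3 vasoactive and coagulation genes all above 0 (median 0.25). No list as a whole was tested for a direction. Antigen presentation and adhesion genes had a median of 0.25 over 9 (7 above 0) and immediate early genes -0.24 over 9 (8 below 0). Of the latter, Rhob, a small GTPase, had groups that did not overlap, at 439.7, 292 and 238 CPM under placebo and 124, 205 and 211 CPM under EPO (log2 fold change -0.97 ± 0.47 (SE), edgeR adjusted p = 0.997). Over the 114 its groups overlapped, with placebo mouse 5 at 238 CPM and EPO mouse 6 at 243 CPM. No member of any list reached an unadjusted p under 0.05. Of the EPO and JAK-STAT list, only 2 of 28 had enough UMIs to be tested, Mcl1 with a log2 fold change of 0.64 ± 0.51 (SE).

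The last comparison asked whether the EPO effect in members differed from that in other barcodes of the same mice. The interaction of class and treatment, with the mouse as a block, gave 0 calls of 922 (0%) by edgeR and 11 at an unadjusted p under 0.05, 0 and 11 by limma, and 1 and 20 by DESeq2. For 71 genes (7.70%) the ratio of members to other barcodes did not overlap between EPO and placebo mice, in the direction of the interaction. This share is no excess either. The gene DESeq2 called was Sema3c, a semaphorin. In members it was at 526, 1224 and 1324 CPM under placebo and 1191, 518 and 1149.6 CPM under EPO, where the groups overlap. In other barcodes it was at 19.6, 33.3 and 55.2 CPM under placebo and 3.59, 4.25 and 11.4 CPM under EPO, so all EPO mice lay below all placebo mice there. That class mixes cell types, and whether its mix differed between the mice was not tested. The difference of log2 fold changes was 2.30 ± 0.44 (SE; edgeR adjusted p = 0.273; limma called none; DESeq2 adjusted p = 0.00262). Over the 114 members edgeR gave an adjusted p of 0.0682, and the range over all alternatives was 0.00262 to 1.

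The junctional adaptor Cgnl1 had the same pattern, with 8.99, 18.5 and 5.19 CPM under placebo and 3.59, 2.36 and 2.53 CPM under EPO in other barcodes. Those values rest on only 37 UMIs over the 6 mice, in a class that mixes cell types. The difference for Cgnl1 was 1.74 ± 0.52 (SE; edgeR adjusted p = 0.998). Stx4a differed by 1.40 ± 0.48. In the opposite direction the respiratory chain subunit Ndufc2, the splicing factor Srsf11 and the SUMO protease Senp6 had differences of -0.92 ± 0.41, -0.90 ± 0.42 and -0.87 ± 0.41 (SE), each with an edgeR adjusted p of 0.998. Epor was not tested, since it had no UMI in the members.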

How the data were processed

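Single cells from CA1 of 3 placebo and 3 EPO mice were measured by Drop-seq. The authors deposited raw UMI counts per gene and barcode for 20234 genes, made, per the submitters' processing notes, with bcl2fastq 2.15, STAR 2.4.0 and mm10. The gene annotation and the choice of 1000 barcodes a mouse were not given in the sources used here. Empty cells of the table were read as 0, and no doublet caller was run.

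The members and gene lists were chosen with earlier results of these data known. Barcodes were taken by the rule in the report, and levels are CPM of UMIs summed per mouse. EPO and placebo were compared with edgeR 4.0.16 (quasi-likelihood, TMM scaling, filterByExpr, Benjamini-Hochberg at 5%) on the sums per mouse, in place of the cell-level tests of the study, with limma 3.58.1 and DESeq2 1.42.0 as alternatives. Shares and medians were compared by exact permutation over mice (scipy 1.17.1), two-sided. Scripts ran in Python 3.11.15 and R 4.3.3 and were tested on simulated data. The genes named are the rule genes, list members, the 15 genes outside the lists with the largest ratio, and, for both EPO tests, the 3 genes a direction with the smallest p and no overlap of the groups. Genes lower in members outside the lists, Igf2 and Igfbp2 were named after their values were seen. Alternatives covered the tool, scaling, filters, the number of markers, the D number and each mouse left out. Some list genes are not reported here.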

Additional observations from a re-analysis of the deposited data

Results flagged for a closer look

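Among the 3904 barcodes outside the limits, 24 had a UMI in at least 3 of the 9 rule markers and no Slc17a7 UMI, a signal in barcodes that the comparisons did not use. Of these, 23 had at most 300 detected genes and 1 exceeded the mitochondrial limit. Each mouse held 2 to 7 of them, with medians of 360.5 UMIs and 232.5 genes, and 8 had at least 6 of the 9 markers.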

How the results depend on the processing

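Over 20 results and 260 alternative values, 243 kept the direction and the side of the threshold (for counts, stayed within 1.5 times), and 17 did not. These results include the genes named for both EPO tests, which were picked for the smallest p and no overlap of the groups. That choice made their direction likely to hold, and most of their adjusted p lay far from the threshold. The tally is therefore no measure of stability. With over 1000 detected genes, the EPO minus placebo difference turned to 0.285 percentage points for the share, -181 for median UMIs and -44.0 for median genes. The difference in median mitochondrial share (-0.366 points) turned to 0.734 with over 1000 genes, 0.0823 with at least 4 markers and 1.18 averaged within D numbers, and ran from -3.18 to 2.41 with each mouse left out, above 0 without placebo mouse 1 or EPO mouse 6. Leaving out a mouse moved the share difference between -3.46 and -0.535 points. Genes higher in members were 256 without members that carried other markers. Genes lower in members were 18 with over 1000 genes, 190 with at least 4 markers and 214 without members that carried other markers. They were 251 with at least 6 markers, an alternative chosen after seeing the data. With over 1000 genes, the genes considered were chosen again on the smaller sums of that setting. Its 18 are therefore not out of the same 788 genes as the other counts and cannot be compared with them directly. With each mouse left out the counts were 543 to 657 higher and 119 to 173 lower. Leaving out a mouse asks fewer mice to pass over the same genes. These counts could therefore only stay or rise, and they measure no stability. Without the filter on low counts, edgeR called 2 of 12959 genes for EPO against placebo, Igf2 and Igfbp2, and 1 interaction, Igfbp2. All 53 Igfbp2 UMIs came from 1 member of EPO mouse 4, and 130 of 137 Igf2 UMIs from the 15 members with few rule markers. DESeq2 called 1 interaction, Sema3c. With each mouse left out, 0 genes were called in either test. The causes of the other changes were not tested. No paired analysis was possible because placebo and EPO mice share no replicate numbers. Depth limits every list: 922 genes could be tested, and most receptors and EPO targets had too few UMIs.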

Other observations

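A few list genes not described above were also at least 2-fold higher in members in 6 of 6 mice. These were Edn3, an endothelin peptide, and the Notch target Hey1 of the arterial list, the organic anion carrier Slc22a8 and the matrix protein Hmcn1 of the capillary list, the matricellular gene Cyr61 and the stress genes Ier3, Klf6 and Zfp36l1 of the immediate early list, and Sult1a1 and Txnip of the glucocorticoid list. Mt2, a metallothionein, was at most 0.5 of its level in other barcodes in 6 of 6 mice. These are descriptions of cells chosen by the same contrast, with no test.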
